A study of Arabidopsis thaliana with 12 samples.

Results

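The EARLI1-like genes are a family of small secreted-protein genes of Arabidopsis thaliana that lie in a pair of clusters on chromosome 4. The 10 members, out of 33201 rows in each deposited table, were AT4G12470 (AZI1), AT4G12480 (EARLI1), AT4G12490, AT4G12500, AT4G12510, AT4G12520, AT4G12545, AT4G12550 (AIR1), AT4G22485 and AT4G22513. They were picked by locus and selected on measured values, since the fold changes of these same tables were in view when the family was proposed, so their calls and fold changes are a description of the family and no test of it. Seedlings 5 days old were sequenced in 4 groups of 3 samples: nup1-1 grown with abscisic acid (ABA) in the medium, Col-0 with ABA, nup1-1 untreated and Col-0 untreated. Col-0 is the wild type, nup1-1 is a mutant labelled for NUP1, a nuclear pore protein gene, and ABA is the stress hormone that slows germination and early growth. The medium was MS in every group, whole seedlings were used, and neither the ABA dose nor the origin of the 3 samples (1 sowing or several) is stated in the labels.

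The files hold a single value per group and gene, in FPKM (fragments scaled to transcript length and library size), so no spread over samples can be shown and the errors below are standard errors (SE) of log2 fold changes rebuilt from the deposited test statistics. A gene was counted as lower or higher where the deposited q was under 0.05. Depth per sample is unknown, p-values may measure technical spread only, and in whole seedlings fewer cells of a type and less RNA per cell cannot be told apart. In the authors' deposited tables NUP1 itself stood at 7.47 FPKM in nup1-1 on ABA against 13.8 FPKM in Col-0 on ABA (q = 0.000272), and at 9.23 FPKM in untreated nup1-1 against 12.8 FPKM in untreated Col-0 (q = 0.243). Where along the transcript these reads fall is unknown, and the values therefore do not check the mutant label.

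Genes of this family encode hybrid proline-rich proteins: a signal peptide is followed by a proline-rich stretch and then by a domain of 8 cysteines that is shared with lipid transfer proteins. AZI1 is known for its part in defence priming by azelaic acid and in systemic acquired resistance, the state in which distant leaves become more resistant after a local infection. EARLI1 is its close relative, first described as a gene induced by aluminium and also by cold. AIR1 was first described as a gene induced by auxin in root cultures, around the time lateral roots form. ABA acts on seedlings through transcription factors such as ABI5, which bind a DNA element whose core is ACGT.

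All 10 members had a single-exon model with a complete 8-cysteine motif when their RefSeq coding sequences on TAIR10.1 were translated. How far the proline-rich part of the name holds differed between them. AZI1, EARLI1, AT4G12490 and AT4G12500 had 20, 22, 27 and 23 prolines ahead of the motif in proteins of 161, 168, 182 and 177 residues. AT4G12510 and AT4G12520 had 4 each, AT4G12545 had 1, AIR1 had 2 and AT4G22513 had 1. AT4G22485 was the opposite extreme, with 266 prolines ahead of the motif in a model of 656 residues that RefSeq marks as partial. The stretches differ in length. From residue 26 to the motif, prolines made up 33.8% to 38.5% of residues in AZI1, EARLI1, AT4G12490 and AT4G12500, and 48% in AT4G22485. The share was 20% in AT4G12510 and AT4G12520 and 0% in AT4G12545 and AIR1. In AT4G22513 it was 25%, which rests on 1 proline.

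The domains fell into groups of near relatives that also lie side by side. AZI1, EARLI1, AT4G12490 and AT4G12500 formed the largest group, with 89.2% to 96.4% identity over the 8-cysteine domain in every pair. Identity was 94% between AZI1 and EARLI1, 96.4% between AT4G12490 and AT4G12500 and 88% between AT4G12545 and AIR1. EARLI1 was as close to AT4G12500 (94%), which is not its direct neighbour, as to AZI1. AT4G12510 and AT4G12520 had the same domain, residue for residue. AT4G22485 and AT4G22513 were the distant members, with 38.6% and 38.1% identity to the AZI1 domain.

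**Figure D1:**
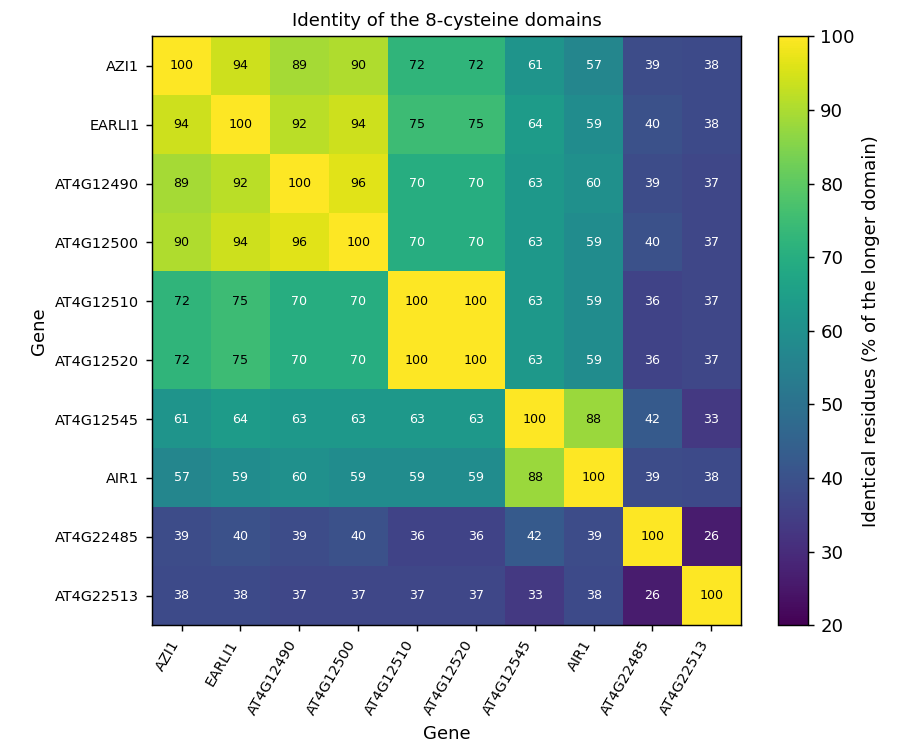
Identity of the 8-cysteine domain for each pair of the 10 genes, as identical residues in percent of the longer domain (colour and number in each cell). AT4G12510 and AT4G12520 are at 100, AZI1 and EARLI1 at 94, and AT4G22485 and AT4G22513 are the least like the rest.

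The near-identity of AT4G12510 and AT4G12520 limits how well reads can be told apart, so their sequences are shown. Their coding sequences agreed at 388 of 390 aligned bases, and the 2 differences, T372C and T375C, stand in capitals in the stretch from base 357 to base 386, counted from 1 at the first base of the start codon:
AT4G12510: caagaaggttccttcTggTttcgtatgtgc
AT4G12520: caagaaggttccttcCggCttcgtatgtgc
Of all exon stretches of 50 bases, 51.8% in AT4G12510 and 58.1% in AT4G12520 occurred elsewhere in the genome, and of those of 100 bases still 48.4% and 55.5%. The labels do not say how such reads were shared out, so the values of these 2 genes are uncertain one by one. No stretch of 50 bases of AZI1, EARLI1 or AT4G22485 was found elsewhere, and for the remaining members the share was between 3.44% and 11.9%. Antisense genes overlap EARLI1, AT4G12490, AT4G12545, AIR1, AT4G22485 and AT4G22513 in the annotation. The labels do not say whether counting used strand, so reads from the overlaps cannot be told apart. The overlap is 32 of 930 exon bases for EARLI1, 282 of 786 for AT4G12490, 444 of 660 for AT4G12545 and 642 of 691 for AIR1. For AT4G22485 (1971 bases) and AT4G22513 (631 bases) it covers the whole model. The table row of AT4G22513 also spans 2505 bases, against 631 in its RefSeq model, a span it shares with the rows of AT4G22517 and AT4G22510.

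The levels could be set on a common scale, that of the table for ABA in Col-0, because the ratios of the 4 tables close around the 4 groups to within -0.02 to 0.01 log2 units for the members. AZI1 was the most abundant member in 3 of the 4 groups, with 58.6 FPKM in nup1-1 on ABA, 117 FPKM in Col-0 on ABA, 181 FPKM in untreated nup1-1 and 204 FPKM in untreated Col-0. EARLI1 had 5.89, 55.1, 164 and 326 FPKM in the same order of groups, and was the most abundant in untreated Col-0. These 2 genes made up between 67.9% and 85.5% of the summed level of the family in every group.

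The summed level of the 10 genes was 75.4 FPKM in nup1-1 on ABA, 254 FPKM in Col-0 on ABA, 464 FPKM in untreated nup1-1 and 739 FPKM in untreated Col-0. The mix changed along with the sum. AZI1 held 77.7% of it in nup1-1 on ABA, 46.2% in Col-0 on ABA, 39% in untreated nup1-1 and 27.7% in untreated Col-0. EARLI1 held 7.81%, 21.7%, 35.3% and 44.2%. The level of EARLI1 over that of AZI1, a pair with 84.6% identical coding bases, was thus 0.101 in nup1-1 on ABA, 0.469 in Col-0 on ABA, 0.905 in untreated nup1-1 and 1.6 in untreated Col-0.

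The order of the groups was untreated Col-0, untreated nup1-1, Col-0 on ABA and nup1-1 on ABA, from high to low, for AZI1, EARLI1, AT4G12490, AT4G12545, AIR1 and AT4G22513. Not every step of it passed a test: the gap between the 2 untreated groups missed the deposited test for AZI1 (q = 0.798 in the authors' deposited table) or AT4G22513 (q = 0.129), as did that between the 2 ABA groups for AT4G22513 (q = 0.152). AT4G12490 was not tested between the ABA groups, and Col-0 on ABA was not compared with untreated nup1-1. AT4G12500 had its lowest value in Col-0 on ABA, listed at 0, below 0.023 FPKM in nup1-1 on ABA, a pair that was not tested. The near-identical pair departed from it. AT4G12510 had 4.01 FPKM in nup1-1 on ABA, 20.5 FPKM in Col-0 on ABA, 13.2 FPKM in untreated nup1-1 and 22.5 FPKM in untreated Col-0, so that Col-0 on ABA stood above untreated nup1-1. AT4G12520 gave the same order, with 6.1, 20.6, 15.6 and 24.5 FPKM, and for both genes the gap between the Col-0 groups missed the deposited test (q = 0.863 and q = 0.628 in the authors' deposited table). AT4G22485 was the member with its highest value in untreated nup1-1, at 19.3 FPKM, next to 16.5 FPKM in untreated Col-0, and these neighbours in the order also missed the deposited test (q = 0.736 in the authors' deposited table).

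**Figure D2:**
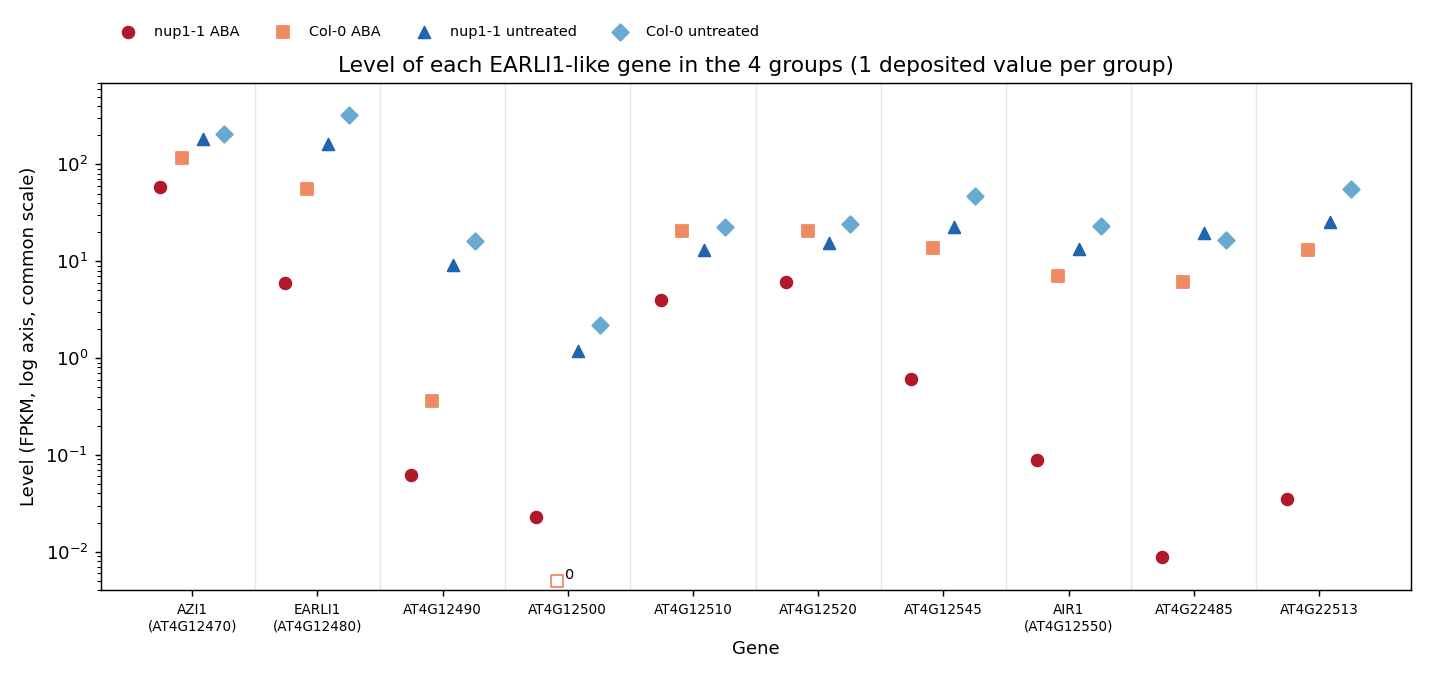
Level of each gene in the 4 groups, in FPKM on a common scale with a log axis; each point is 1 deposited group value, and an open point at the foot of the plot stands for a value listed at 0. In nup1-1 on ABA, 6 genes lie under 1 FPKM, while AZI1 stays at 58.6 FPKM.

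The first comparison asks what ABA did in the mutant. In nup1-1 every member had a lower value on ABA, and the sizes spread widely: EARLI1 was 27.6-fold lower and AT4G12545 36.2-fold lower, while AZI1 was 3.07-fold lower. In the authors' deposited table EARLI1 stood at 6.83 FPKM on ABA against 189 FPKM untreated, a log2 fold change of -4.79 ± 0.21 (SE). AZI1 stood at 67.9 FPKM on ABA against 208 FPKM untreated, or -1.62 ± 0.16. AT4G12545, the neighbour and near relative of AIR1, stood at 0.71 FPKM on ABA against 25.7 FPKM untreated, or -5.18 ± 0.44.

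AT4G12510 and AT4G12520 fell by 1.70 ± 0.29 and by 1.34 ± 0.24 on the log2 scale in nup1-1. These 5 genes were called lower, 5 of 10 against 25.3% of all tested genes, and none was called higher, against 21.2% of all tested genes. The other 5 members were nearly absent on ABA and were not called. In the authors' deposited table AIR1 stood at 0.104 FPKM on ABA against 15.3 FPKM untreated (q = 0.197), AT4G22485 at 0.0102 FPKM against 22.4 FPKM (q = 0.253) and AT4G22513 at 0.0404 FPKM against 29.4 FPKM (q = 0.119). AT4G12490 stood at 0.0722 FPKM on ABA against 10.6 FPKM untreated (q = 0.342), and AT4G12500, the least abundant member, at 0.0266 FPKM against 1.38 FPKM (q = 0.212). For these 5 genes the deposited p was far larger than the deposited statistic gives, so no error is printed for them. Their values on ABA lie near the bottom of the table: among rows of like span with a value above 0, only 1.04% were lower than AT4G22485, and between 2.04% and 10.8% were lower than the other 4.

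The median log2 fold change over the 10 members was -5.44 in nup1-1, beside 0.00 over all genes tested. It depends on the values near 0, and adding 1 FPKM to every value moves it to -3.66.

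The next comparison asks the same of the wild type. In Col-0, ABA lowered 8 of the 10 members, against 7.79% of all tested genes, and raised none, against 7.83% of all tested genes. The median log2 fold change was -1.71 over the 9 members with a value above 0 in both groups, beside -0.02 over all genes tested. The strongest fall with an error was that of AT4G12490, at 0.361 FPKM on ABA against 16.3 FPKM untreated in the authors' deposited table, or -5.50 ± 0.52 on the log2 scale. Its near relative AT4G12500 was listed at 0 on ABA against 2.22 FPKM untreated and was called lower as well.

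EARLI1 stood at 55.1 FPKM in Col-0 on ABA against 326 FPKM in untreated Col-0, or -2.57 ± 0.22. AZI1 moved less, with 117 FPKM on ABA against 204 FPKM untreated, or -0.80 ± 0.23 (q = 0.00789 in the authors' deposited table). AT4G12545, AIR1, AT4G22485 and AT4G22513 had log2 fold changes of -1.76 ± 0.24, -1.71 ± 0.26, -1.43 ± 0.28 and -2.10 ± 0.41. In contrast to nup1-1, all 4 kept levels of 6 to 14 FPKM on ABA: AIR1 stood at 7.08 FPKM on ABA against 23.2 FPKM untreated, and AT4G22485 at 6.13 FPKM against 16.5 FPKM.

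The near-identical pair was not called in Col-0. AT4G12510 stood at 20.5 FPKM on ABA against 22.5 FPKM untreated (-0.13 ± 0.27) in the authors' deposited table, and AT4G12520 at 20.6 FPKM against 24.5 FPKM (-0.25 ± 0.25).

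The genotypes were then compared on ABA. Here nup1-1 had lower values than Col-0 for 9 of the 10 members, the exception being AT4G12500, at 0.0265 FPKM in nup1-1 and listed at 0 in Col-0. Of the 8 members that were tested, 6 were called lower in nup1-1, against 23.3% of all tested genes, and none higher, against 15.4% of all tested genes. EARLI1 stood at 6.78 FPKM in nup1-1 against 63.4 FPKM in Col-0 in the authors' deposited table, 9.35-fold lower (-3.23 ± 0.18 on the log2 scale). AZI1 stood at 67.4 FPKM in nup1-1 against 136 FPKM in Col-0 (-1.01 ± 0.15).

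AT4G12545 showed the largest gap with an error, 0.706 FPKM in nup1-1 against 15.9 FPKM in Col-0 (-4.49 ± 0.40). AT4G12510 and AT4G12520 were lower in nup1-1 too, with log2 fold changes of -2.36 ± 0.24 and -1.76 ± 0.20. AIR1 was called too, with 0.103 FPKM in nup1-1 against 8.15 FPKM in Col-0 (q = 0.00942 in the authors' deposited table). AT4G22485, at 0.0101 FPKM in nup1-1 against 7.01 FPKM in Col-0, had the lowest ratio of the 20284 tested genes with a value above 0 in both groups, yet was not called (q = 0.292). AT4G22513 stood at 0.0401 FPKM in nup1-1 against 14.9 FPKM in Col-0 (q = 0.152), and AT4G12490, which was not tested, at 0.0717 FPKM against 0.414 FPKM. The median log2 fold change was -3.23 over the 9 members above 0 in both groups, the untested AT4G12490 included, beside -0.01 over all genes tested.

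Without ABA the family differed less between the genotypes. Of the 10 members 4 were called lower in untreated nup1-1, against 3.92% of all tested genes, and none higher, against 2.68% of all tested genes. The median log2 fold change was -0.81, beside -0.02 over all genes tested. EARLI1 stood at 164 FPKM in nup1-1 against 327 FPKM in Col-0 (-0.99 ± 0.24, q = 0.00198 in the authors' deposited table). AT4G12545 stood at 22.4 FPKM against 46.7 FPKM (-1.06 ± 0.24, q = 0.00198 in the authors' deposited table), AT4G12490 at 9.24 FPKM against 16.3 FPKM (-0.82 ± 0.27, q = 0.04) and AIR1 at 13.3 FPKM against 23.3 FPKM (-0.81 ± 0.26, q = 0.0461).

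AZI1 was not among them, with 182 FPKM in untreated nup1-1 against 205 FPKM in untreated Col-0 (-0.17 ± 0.24, q = 0.798 in the authors' deposited table). Values lower in nup1-1 that did not pass were those of AT4G12500 (-0.89 ± 0.46), AT4G12510 (-0.77 ± 0.29), AT4G12520 (-0.65 ± 0.27) and AT4G22513 (-1.14 ± 0.47). AT4G22485 had 19.4 FPKM in nup1-1 against 16.6 FPKM in Col-0 (0.22 ± 0.27). No member was higher at an unadjusted p under 0.05 in any of the 4 comparisons. The comparisons share groups with each other, so their values stand side by side and do not count as separate evidence.

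**Figure D3:**
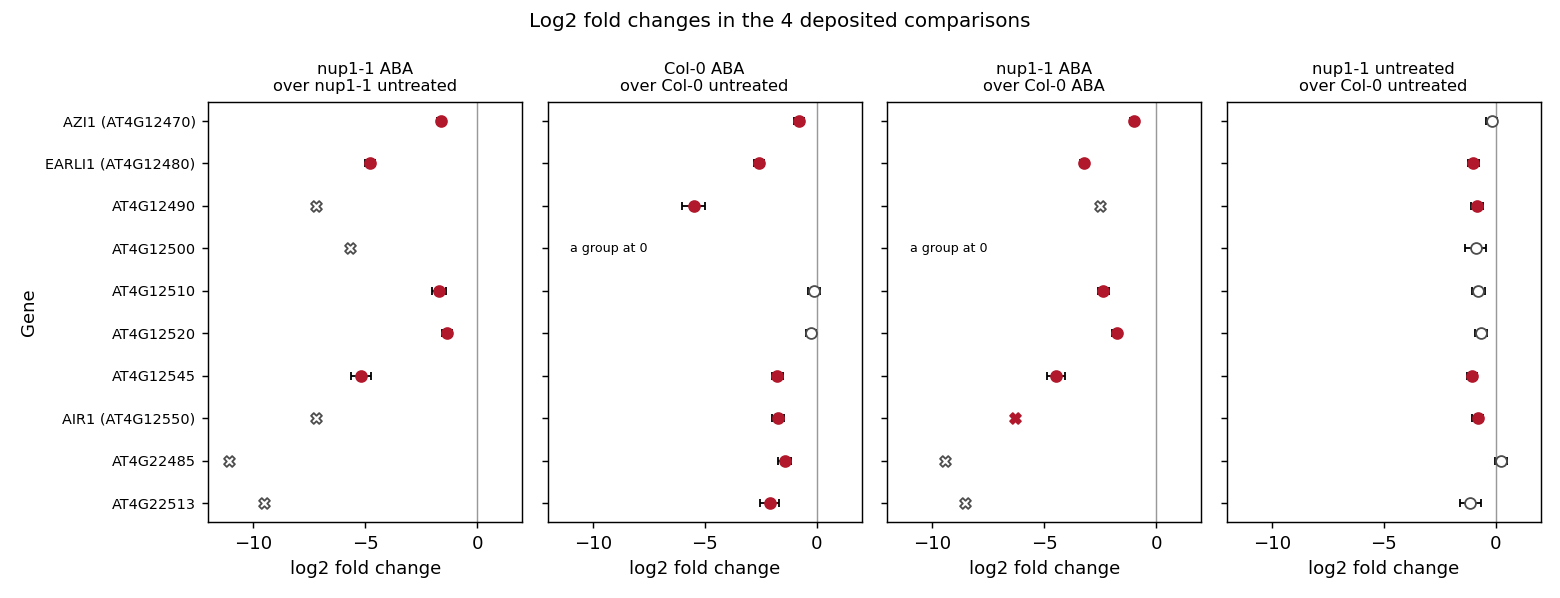
Log2 fold change of each gene in the 4 deposited comparisons, first group over second, with bars of ± 1 SE; filled symbols were called at a deposited q under 0.05, and crosses mark fold changes printed with no error because a value lies near 0. No point with a call lies to the right of 0, and 5 genes in nup1-1 on ABA over untreated are open crosses.

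Whether ABA acted differently in the genotypes was read from the difference of both ABA responses, nup1-1 minus Col-0, which come from tables that share no sample. A 2-sided Wald test ran over 19487 genes, and the members were chosen with such differences known, so their values describe size and error. All 5 members with a usable error had a lower ABA response in nup1-1 past an adjusted p of 0.05, against 11.7% of all genes in that direction, and none a higher one, against 4.7% of all genes. The sets are unlike: these shares run over all 19487 genes, of which 19063 had a usable error, while members without one were left out. The difference was -3.42 (95% interval -4.41 to -2.43) for AT4G12545 and -2.22 (-2.82 to -1.62) for EARLI1. It was -1.57 (-2.35 to -0.80) for AT4G12510, -1.10 (-1.77 to -0.42) for AT4G12520 and -0.82 (-1.38 to -0.26) for AZI1.

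The intervals of EARLI1 and AZI1 do not overlap. In fold terms the fall of EARLI1 on ABA was 4.66 times as large in nup1-1 as in Col-0, and that of AZI1 1.76 times. AT4G12490, AIR1, AT4G22485 and AT4G22513 have no usable error and AT4G12500 was not in this test. These errors rest on the deposited statistics. With errors taken from the deposited p-values, which stop at 5e-05 and so cannot show a smaller error, 1 of the 5 (AT4G12510) passed.

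**Figure D4:**
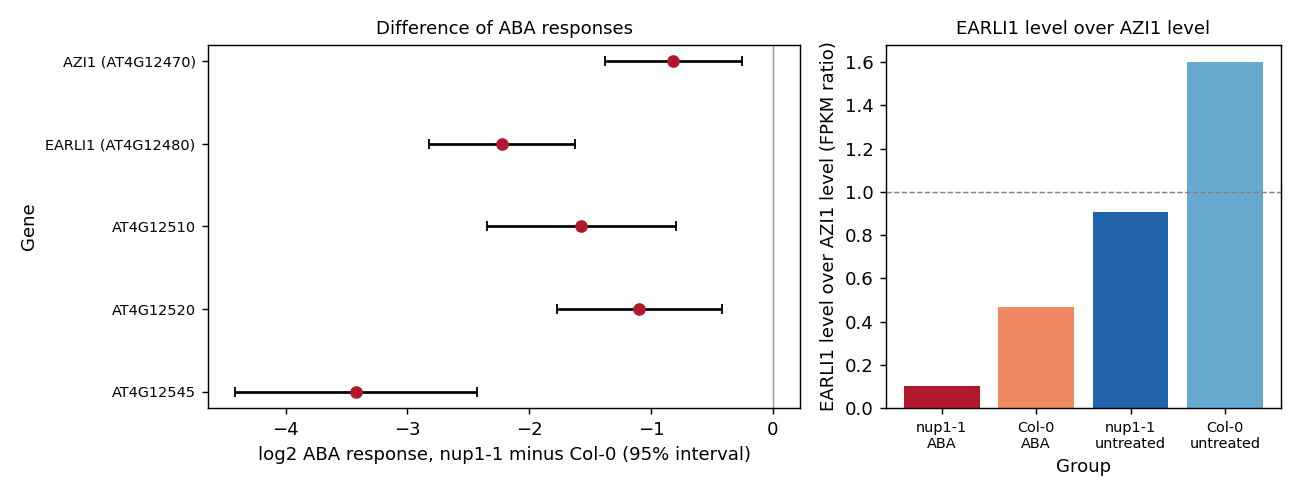
Left, difference of the log2 ABA responses, nup1-1 minus Col-0, for the 5 genes with a usable error, with 95% intervals; right, the level of EARLI1 over that of AZI1 in each group, with a dashed line where both are equal. All 5 intervals lie below 0, and the ratio is 0.101 in nup1-1 on ABA and 1.6 in untreated Col-0.

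The genes share position as well as sequence. On chromosome 4 of TAIR10 (coordinates of the authors' tables), 8 members lie between bases 7401109 and 7439805, a span of 38.7 kb, and AT4G22485 and AT4G22513 lie between 11844506 and 11857313, a span of 12.8 kb that is 4.4 Mb away. Within the first cluster the 6 genes from AZI1 to AT4G12520 lie on the minus strand and AT4G12545 and AIR1 on the plus strand. The response did not follow the order along the chromosome: AZI1 and the pair AT4G12510 and AT4G12520 had the smallest ABA changes, and EARLI1, AT4G12490 and AT4G12500 lie between them.

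Other rows in and around both clusters went both ways. AT4G12530 and AT4G12540 lie inside the first cluster, and AT4G22490 and AT4G22505 lie between AT4G22485 and AT4G22513. Of 17 neighbouring rows 13 were tested, and in nup1-1 ABA lowered 6 and raised 4 of them, against 25.3% and 21.2% of all tested genes. Their median was -0.52 on the log2 scale, with AT4G22505 and AT4G22517, both listed at 0 on ABA, ranked lowest. In Col-0 ABA lowered 4 and raised 2, against 7.79% and 7.83% of all tested genes. In and around the first cluster the called neighbours in nup1-1 were AT4G12450 (-1.5 ± 0.40), AT4G12540 (1.35 ± 0.31), CPR1 (-0.52 ± 0.15) and ORP2B (0.38 ± 0.15). CPR1 is an F-box gene that limits the amount of immune receptors, and ORP2B is a gene of the oxysterol-binding protein family. None of these 4 was called for ABA in Col-0.

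In and around the second cluster several neighbours encode proteins with the same 8-cysteine motif. In the authors' deposited table for nup1-1, AT4G22505 was listed at 0 on ABA against 30.6 FPKM untreated and was called lower, AT4G22490 stood at 7.51 FPKM against 79.3 FPKM (-3.40 ± 0.24), and AT4G22520 at 2.48 FPKM against 11.2 FPKM (-2.17 ± 0.53). AT4G22470 went the other way, with 9.19 FPKM on ABA against 1.55 FPKM untreated (2.57 ± 0.27), as did AT4G22530 (0.99 ± 0.18), while ORP2A was lower (-1.35 ± 0.16). In Col-0, ABA lowered AT4G22517, AT4G22505, AT4G22490 and AT4G22520 and raised AT4G22470 and AT4G22530. Between the genotypes on ABA, AT4G22490, AT4G22505, ORP2A and CPR1 were lower in nup1-1 and AT4G22470, AT4G22530 and AT4G12540 higher, and no neighbour was called without ABA, where 1 was higher and none lower at an unadjusted p under 0.05. At q under 0.05 the shares over all tested genes were 23.3% lower and 15.4% higher on ABA, and 3.92% and 2.68% without it. 

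**Figure D5:**
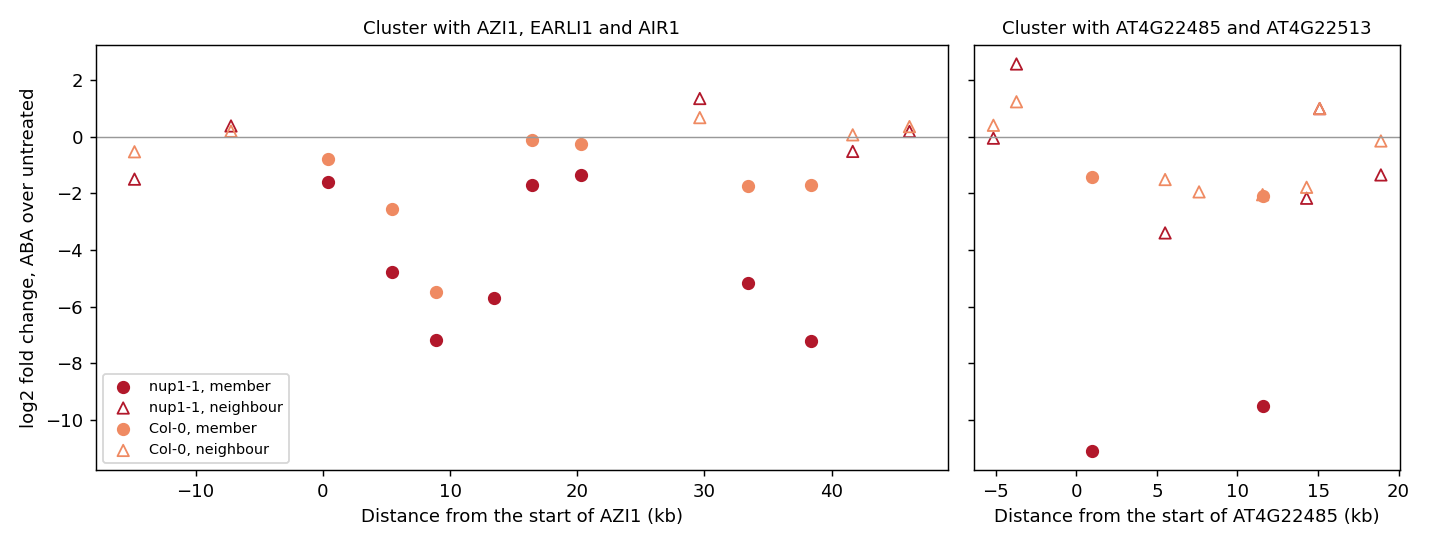
Log2 fold change of ABA over untreated in nup1-1 (dark) and Col-0 (light) by distance in kb along both clusters, for the family (filled circles) and the neighbouring rows (open triangles) that were tested; genes with a group listed at 0 are not drawn. All family points lie below 0, and neighbours lie on both sides. The members were chosen with these fold changes in view, so this contrast is a description and no test. Neighbours that encode the same cysteine motif lie on both sides too: AT4G22490 and AT4G22520 below 0 and AT4G22470 above it in both genotypes.

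The sequences ahead of the genes were read because all 10 members had lower values on ABA in both genotypes, though by widely differing amounts. The 250 bases before the RefSeq start of transcription are shown for the abundant pair, AZI1 and EARLI1. They are also shown for AT4G12545 and AIR1, the pair with the most identical bases over this window (TAIR10.1, 5′ to 3′ on the strand of the gene). Capitals mark TTGAC, the core of the W-box bound by WRKY factors of the defence response, and ACGTG, the core of the ABA-responsive element, on either strand (GTCAA and CACGT on the other). The windows lie at chr4:7401952-7402201, minus strand, for AZI1, at chr4:7406995-7407244, minus strand, for EARLI1, at chr4:7433949-7434198, plus strand, for AT4G12545, and at chr4:7438865-7439114, plus strand, for AIR1:
AZI1: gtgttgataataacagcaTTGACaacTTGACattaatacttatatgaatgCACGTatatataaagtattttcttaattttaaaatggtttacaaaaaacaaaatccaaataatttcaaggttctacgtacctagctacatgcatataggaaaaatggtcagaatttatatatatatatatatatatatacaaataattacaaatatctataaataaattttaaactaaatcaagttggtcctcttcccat
EARLI1: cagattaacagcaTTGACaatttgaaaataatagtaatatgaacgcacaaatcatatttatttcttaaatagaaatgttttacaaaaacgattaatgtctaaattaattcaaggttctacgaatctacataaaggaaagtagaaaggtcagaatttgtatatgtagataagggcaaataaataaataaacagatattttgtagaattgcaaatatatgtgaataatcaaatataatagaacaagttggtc
AT4G12545: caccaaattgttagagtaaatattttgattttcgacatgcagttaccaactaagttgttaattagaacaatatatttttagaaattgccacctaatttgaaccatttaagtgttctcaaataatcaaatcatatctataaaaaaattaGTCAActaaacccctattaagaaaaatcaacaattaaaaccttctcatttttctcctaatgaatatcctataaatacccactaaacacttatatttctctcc
AIR1: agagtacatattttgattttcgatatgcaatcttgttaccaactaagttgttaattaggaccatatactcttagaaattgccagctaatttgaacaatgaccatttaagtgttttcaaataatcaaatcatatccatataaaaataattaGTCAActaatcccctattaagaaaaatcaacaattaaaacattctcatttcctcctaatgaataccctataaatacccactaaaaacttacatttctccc
AT4G12545 and AIR1 agreed at 222 of 236 aligned bases, 88.8% of the window, and AZI1 and EARLI1 at 173 of 226 aligned bases, 69.2% of the window. AT4G12510 and AT4G12520, whose windows are not shown, agreed at 157 of 160 aligned bases, but these fill only 62.8% of the window. The first part of the AT4G12510 window matches the last part of the AT4G12520 window. The low share thus comes from an offset of the annotated starts, and the windows cover different parts of a shared sequence. The W-box core stands at -100 in AIR1 and at -102 in AT4G12545, and at -232 and -224 in AZI1 against -237 in EARLI1, counted from the RefSeq start to the first base of the match. That start is at base 7401951 for AZI1 and 7406994 for EARLI1, upstream of 7401907 and 7406937 in the authors' rows. Positions therefore depend on the annotation. AZI1 has an ACGTG core at -200, and EARLI1 has none in this window.

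Over the whole family ACGTG was found in 2 of 10 windows, those of AZI1 and AT4G12500, beside 22.9% of 27443 protein-coding genes. The full G-box CACGTG was found in none, beside 6.49%. TTGAC was found in 8 of 10, beside 44.9%, and was missing from AT4G12510 and AT4G12520. TTGACT, which contains TTGAC, was found in 4, beside 19.1%, and TTGACC in none, beside 12.2%. The auxin response element TGTCTC was found in none, that of AIR1 included, beside 10.9%. CATGCA, the RY element of seed genes, was found in 3, beside 8.43%, TGACG in 1, beside 18.6%, and CCGAC, the core element of cold and drought responses, and GCCGCC in none, beside 12% and 1.87%. Both strands were searched in each case, matches are a description of letters, and near-identical promoters are not separate observations. The partial model of AT4G22485 has 1971 exon bases and 1971 coding bases, so its window ends at the first coding base. The windows are thus not aligned to like starts.

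Genes of the azelaic acid and systemic acquired resistance pathway were described beside AZI1. Of 24 listed genes 19 were tested for ABA in nup1-1, where 13 were lower and 2 higher, against 25.3% and 21.2% of all tested genes. The median was -0.93 over those tested. DIR1, a lipid transfer protein gene of long-distance defence signalling, stood at 26.6 FPKM on ABA against 85 FPKM untreated in the authors' deposited table (-1.68 ± 0.18). The largest called changes were those of CBP60g, a transcription factor gene of salicylic acid synthesis (-4.44 ± 0.43), PR5, a thaumatin-like defence gene (-4.15 ± 0.54), and DIR1-like (-2.41 ± 0.21). In Col-0, 3 of 18 were lower on ABA and 1 was higher, against 7.79% and 7.83% of all tested genes. Those lower were PR5 (-3.72 ± 0.43), PAD4, a lipase-like regulator gene of immunity (-0.71 ± 0.23), and DIR1 (-0.66 ± 0.24).

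Between the genotypes on ABA, 11 of 18 genes of that pathway were lower in nup1-1 and 1 higher, against 23.3% and 15.4% of all tested genes. DIR1 stood at 26.4 FPKM in nup1-1 against 195 FPKM in Col-0 in the authors' deposited table (-2.88 ± 0.17), DIR1-like at 22.7 FPKM against 148 FPKM (-2.70 ± 0.18), and ALD1, an enzyme gene of pipecolic acid synthesis, at 0.0663 FPKM against 1.1 FPKM (q = 0.0145). In untreated seedlings, DIR1 was lower in nup1-1, at 74 FPKM against 268 FPKM in Col-0 (-1.86 ± 0.23), where AZI1 was not called. There 3 of 20 tested genes were higher in nup1-1, among them SARD1 (2.65 ± 0.58), a relative of CBP60g, and CBP60g itself (1.79 ± 0.33), and DIR1 alone was called lower. Over all tested genes the shares were 2.68% higher and 3.92% lower. By the difference of ABA responses, 5 of 17 were lower in nup1-1, against 11.7% of all genes, and none higher, against 4.7%.

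Other proline-rich genes with the 8-cysteine motif were lower on ABA in nup1-1 in 12 of 18 tested and higher in 2, against 25.3% and 21.2% of all tested genes. Their median was -1.40, in which AT4G22505 and AT4G22517, listed at 0 on ABA, rank lowest. Those lower included AT4G22505, given above, AT3G22142 (-4.39 ± 0.20), AT4G22490, given above, and DRN1, a lipid transfer gene linked to disease response, at 516 FPKM on ABA against 3807 FPKM untreated in the authors' deposited table (-2.88 ± 0.24). In Col-0, 8 of 18 were lower on ABA and 1 higher, against 7.79% and 7.83% of all tested genes, with a median of -0.64. AT4G22517 (-2.05 ± 0.43), AT4G22505 (-1.95 ± 0.28) and AT4G22520 (q = 0.0172) changed most. Between the genotypes on ABA 11 were lower in nup1-1 and 2 higher, against 23.3% and 15.4% of all tested genes. AT4G22505 was listed at 0 in nup1-1 against 6.92 FPKM in Col-0 in the authors' deposited table, and the largest changes among genes above 0 were those of AT2G10940 (-2.07 ± 0.18), AT4G22490 (-2.04 ± 0.21) and AT3G22142 (-2.03 ± 0.19). Without ABA 2 were lower, AT4G00165 (-0.96 ± 0.24) and CO2 (-0.74 ± 0.24), and 1 was higher, AT3G22142 (0.70 ± 0.23). Over all tested genes the shares there were 3.92% lower and 2.68% higher. Among those with a usable error, the difference of ABA responses was lower in nup1-1 for 7 of 14 genes and higher for 2. The shares were 11.7% and 4.7% of all genes, those without a usable error included. The median was -0.89, beside -1.57 over the 5 EARLI1-like genes with a usable error.

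The listed lipid transfer protein genes, LTPG1 and LTPG2 among them, carry the 8-cysteine fold without the proline-rich stretch, and they split in direction. In nup1-1 ABA raised 5 of 10 and lowered 5, against 21.2% and 25.3% of all tested genes, with a median of 0.06. LTP2, a gene of the epidermis and cuticle, stood at 7891 FPKM on ABA against 443 FPKM untreated in the authors' deposited table (4.16 ± 0.26), while AT2G18370 (-2.69 ± 0.24) and LTP5 (-2.39 ± 0.19) were lower. In Col-0 ABA raised 5 and lowered 2, against 7.83% and 7.79% of all tested genes. LTP4 stood at 39.9 FPKM on ABA against 1.05 FPKM untreated (5.25 ± 0.41), with LTP2 higher by 3.65 ± 0.25 and LTP3 by 2.30 ± 0.24. On ABA 2 were higher in nup1-1 and 5 lower, against 15.4% and 23.3% of all tested genes. Those lower were led by AT2G18370 (-2.37 ± 0.22), LTP5 (-1.40 ± 0.15) and AT2G15050 (-1.37 ± 0.16). Without ABA 3 were higher in nup1-1 and none lower at q under 0.05 (2 lower at an unadjusted p under 0.05): LTP4 (3.22 ± 0.47), AT2G18370 (1.61 ± 0.28) and LTP3 (0.79 ± 0.24). Over all tested genes 2.68% were higher and 3.92% lower there. By the difference of ABA responses 1 of 10 was higher and 4 were lower in nup1-1, against 4.7% and 11.7% of all genes.

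The auxin and lateral root genes listed beside AIR1 moved less. In nup1-1 ABA lowered 7 of 14 and raised 2, against 25.3% and 21.2% of all tested genes. IAA19 (-1.92 ± 0.28) and IAA14 (-1.57 ± 0.22), both repressors of auxin response, were among those lowered. LBD16, a transcription factor gene of lateral root initiation, was raised, at 14.1 FPKM on ABA against 2.81 FPKM untreated in the authors' deposited table (2.33 ± 0.24). In Col-0 LBD16 was the one call (1.98 ± 0.28), also at an unadjusted p under 0.05. Over all tested genes 7.83% were higher and 7.79% lower there at q under 0.05. On ABA, 4 of 14 were lower in nup1-1, IAA14 (-1.54 ± 0.20), IAA19 (-1.24 ± 0.26) and AIR3 (-0.87 ± 0.15) with the largest changes, and 2 were higher. These counts are near the shares over all tested genes, 23.3% lower and 15.4% higher. Without ABA, GH3.3, an auxin-conjugating enzyme gene, was higher in nup1-1 (0.99 ± 0.24) and no other gene was called, nor at an unadjusted p under 0.05. Over all tested genes 2.68% were higher and 3.92% lower at q under 0.05. The difference of ABA responses was lower in nup1-1 for 2 of 13, near the 11.7% of all genes, and higher for none, against 4.7%.

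The genes whose 4 log2 fold changes lay nearest to the median profile of the family were found by Euclidean distance, with 0.1 added to FPKM, among 12574 other genes at 10 FPKM or more in their highest group. The median profile came from the 8 members tested in all tables. They were SCPL13 (distance 0.461), a serine carboxypeptidase-like gene, AT3G05730 (0.495), AT5G18600 (0.511), IRT1 (0.583), the iron transporter gene of the root epidermis, and AT3G11110 (0.658). IRT1 had 1.59 FPKM in nup1-1 on ABA, 28.8 FPKM in Col-0 on ABA, 62.7 FPKM in untreated nup1-1 and 105 FPKM in untreated Col-0. AT4G12545 was the member nearest to the median profile, at 0.655, and EARLI1 followed at 1.17, while AZI1 was the farthest at 4.38, with 885 other genes nearer. With 4 values that come from 4 groups, of which 3 are free, likeness of this kind is loose.

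Markers of tissues and of the seed moved in the same samples, and their part in the family's values was not tested. All 8 seed and embryo markers were higher on ABA in Col-0 and 7 of 8 in nup1-1, with summed levels of 7816 FPKM in nup1-1 on ABA, 5148 FPKM in Col-0 on ABA, 6.94 FPKM in untreated nup1-1 and 20.2 FPKM in untreated Col-0. All 3 mesophyll markers were lower on ABA in both genotypes and lower in nup1-1 than in Col-0 on ABA, with sums of 1350, 5943, 7242 and 13010 FPKM in that order of groups. Over all tested genes ABA raised 7.83% in Col-0 and 21.2% in nup1-1, and lowered 7.79% and 25.3%. On ABA 23.3% were lower in nup1-1 than in Col-0. Root cortex sums were 66.2, 103, 163 and 166 FPKM, with PEP lower (-2.04 ± 0.21) and CO2, itself a gene of the 8-cysteine list, higher (1.90 ± 0.17) on ABA in nup1-1. Root hair sums were 54.3, 25.1, 20.9 and 18.6 FPKM, root stem cell niche sums 14.3, 6.91, 3.67 and 4.22 FPKM, endodermis sums 48.3, 62.4, 64.8 and 61.1 FPKM and stele sums 24.2, 32, 42.6 and 44.6 FPKM. Stomatal lineage sums were 29.7, 28.9, 28.7 and 34.8 FPKM, and shoot epidermis sums 252, 224, 165 and 142 FPKM. Some sums join markers that moved apart on ABA in nup1-1. Of the niche markers, WOX5 was higher (3.055 on the log2 scale), PLT2 was lower (-0.83) and PLT1 was not called. Of the stomatal lineage markers, FAMA was lower (-1.70), and SPCH (0.68) and TMM (0.70) were higher. None of the 30 markers was listed at 0 in any group. Of 12 reference genes, UBQ5 was higher and ACT2 lower in both comparisons that involve nup1-1 on ABA, and none was called in the other comparisons, nor at an unadjusted p under 0.05. The median of the reference genes lay between -0.13 and 0.11 log2 units in the 4 comparisons, and no called fold change of a member changed direction when it was subtracted.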

How the data were processed

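RNA from whole seedlings was sequenced in 12 samples, and per the submitters' processing notes FastQC, Trimmomatic, TopHat and the build TAIR10 were used; neither versions nor the program behind the tables is stated. The authors deposited 4 comparison tables of 33201 rows with 1 FPKM value per group. Per the file headers each table also holds a test statistic, which is a score, and p-values and q-values. The deposited q-values equal a Benjamini-Hochberg adjustment over the tested genes, of which there were 20004 to 20459 per table. The smallest deposited p is 5e-05.

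The members and gene lists were chosen with earlier results of these data known. Log2 fold changes were recomputed from FPKM. Standard errors are the fold change over a normal deviate, itself the deposited statistic multiplied by 1.739 to 1.744 (1 fitted value per table). None is printed for values at 0, or where the deposited p implies an error over 1.5 times as large. Rows at the smallest p, 5e-05, are exempt from the second rule, because there p gives only an upper limit of the error. EARLI1 and AT4G12545 in nup1-1 are among these exempt rows. Differences of ABA responses were tested by a 2-sided Wald test with Benjamini-Hochberg adjustment over 19487 genes at 1 FPKM or more in the highest group, a calculation tested on simulated data. Each table was normalized separately: in the genotype tables Col-0 on ABA stood 0.20 log2 units above its value in the ABA table, and untreated nup1-1 below it (-0.20). These shifts were removed for the common scale.

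All 10 members were named, and of each list the 3 genes with the largest fold change among those called, plus DIR1 for its level. Row coordinates are TAIR10 with the start counted from 1, and gene models and sequences are RefSeq on TAIR10.1, where 32208 rows matched a locus tag. Both annotations place 27.6% of matched rows at the same start and end. Alternatives were a stricter q, unadjusted p, a minimum fold change, added constants, a minimum level, leaving out near-identical copies, another centring and errors from the deposited p. The software was Python 3.11.15 with numpy 2.4.6, pandas 2.3.3, scipy 1.17.1 and matplotlib 3.10.9.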

Additional observations from a re-analysis of the deposited data

Results flagged for a closer look

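The ABA response differed between nup1-1 and Col-0 for all 5 EARLI1-like genes whose error could be rebuilt, when the difference was itself put to a 2-sided Wald test (q: Benjamini-Hochberg adjustment over 19487 genes). Of all genes in that test, those without a usable error included, 11.7% had a lower response in nup1-1 and 4.7% a higher one at q under 0.05. Of the 9 members in it, AT4G12490, AIR1, AT4G22485 and AT4G22513 had no usable error. The difference of the log2 responses, nup1-1 minus Col-0, was -0.82 for AZI1 (q = 0.0297), -2.22 for EARLI1 (q = 3.24e-11), -1.57 for AT4G12510 (q = 0.00105), -1.10 for AT4G12520 (q = 0.0132) and -3.42 for AT4G12545 (q = 9.05e-10). With errors taken from the deposited p-values, 4 of these 5 calls are lost (q = 0.301 for AZI1, q = 0.338 for EARLI1, q = 0.0828 for AT4G12520 and q = 0.104 for AT4G12545), and that of AT4G12510 is kept (q = 0.0314). The genes were chosen with these differences known, and AT4G12510 and AT4G12520 share most of their sequence.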

How the results depend on the processing

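For the difference of ABA responses, the 3 alternatives run change the error, the genes tested or the centring and could hardly turn a direction, so only the calls bear on it. With errors from the deposited p-values, whose floor sets a lower limit on those errors, 1 member passed instead of 5, and adjusted p over the alternatives ranged from 0.0228 to 0.301 for AZI1, 1.61e-11 to 0.338 for EARLI1, 0.000783 to 0.0314 for AT4G12510, 0.0101 to 0.0828 for AT4G12520 and 6.04e-10 to 0.104 for AT4G12545. The count of members lower in untreated nup1-1 than in untreated Col-0 was 4, and it was 2 at q under 0.01, 7 at an unadjusted p under 0.05 and 1 when a log2 size of 1 or more was also required. Shares over all tested genes were not computed at these other settings, nor with errors from the deposited p-values. The counts there show only how far they depend on the setting. The median for ABA in nup1-1 was -5.44, and it was -4.88 with 0.1 FPKM added, -3.66 with 1 FPKM added and -6.45 without the near-identical copies. The median for nup1-1 against Col-0 on ABA was -3.23, and it was -2.77 with 0.1 FPKM added, -2.56 with 1 FPKM added, -3.86 over members at 1 FPKM or more in the higher group and -4.49 without the copies. Over all alternatives, 13 of 16 counts and 17 of 24 medians stayed within 1.5 times the count or within the median error of the members. No paired analysis was possible because the tables hold 1 value per group, and for the same reason no sample could be left out. Values near 0 limit what can be said of 5 members in nup1-1 on ABA.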
